A study of Mus musculus with 3 samples.

Results

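The genes described here encode the Toll-like receptors and the route from them to the transcription factor NF-kB: 33 listed genes, of which 30 were measured, out of 18194 genes measured in all. A gene was measured where at least 1 probe set of the array was annotated to it alone, and with several such probe sets the one with the highest mean signal was taken. Irak4, Chuk and Nfkb1 had no such probe set in the annotation used and were not analysed here. The 30 genes are 9 Toll-like receptors (Tlr1 to Tlr9), the tumour necrosis factor receptor gene Tnfrsf1a and 20 genes that act downstream of receptors, with 69 probe sets between them. RNA of 3 samples of wild-type mouse astrocytes was measured on the Affymetrix Mouse Genome 430 2.0 platform, which reads 1 colour. The cells came from embryonic stem cells by way of embryoid bodies (4 days), selection (5 to 7 days) and neural precursors kept in FGF2 and an EGF. At 18 passages after the embryoid bodies, growth factors were withdrawn and 5% fetal bovine serum was added for 5 days. All 3 samples form 1 group, with no stimulated or untreated counterpart, and serum, which the cells of every sample received, is therefore not compared with its absence.

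Toll-like receptors recognise molecules of microbes and of damaged cells. Tlr1, Tlr2, Tlr4, Tlr5 and Tlr6 act mainly at the cell surface, and Tlr3, Tlr7, Tlr8 and Tlr9 sense nucleic acids in endosomes. Their intracellular TIR domains recruit the adaptors MyD88, TIRAP and TRIF, which pass the signal through IRAK kinases, TRAF6 and the TAK1 complex to the IKK complex. IKK marks the inhibitory IkB proteins for destruction, and freed NF-kB dimers enter the nucleus, where they switch on genes that include those of their own inhibitors. In brain, these receptors are best known from microglia, and astrocytes of several preparations respond to some of their ligands.

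With no contrast in the design, each gene was set against background. The background limit of an array was the 95th percentile of the log2 signal of 76 chemosensory receptor genes (those of smell, the vomeronasal organ, trace amines and taste), and was 3.99, 4.10 and 4.08 on replicates 1, 2 and 3. A gene is called above background where its log2 signal exceeded the limits in a one-sided test with limma (1 sample group against the limits, p adjusted by Benjamini-Hochberg over 18118 genes, threshold 0.05). Levels are mean log2 signal ± SD (n = 3), and distances are log2 units from the limit. A probe set's level says nothing about the level of another gene, because probe sets differ in brightness. The median probe-set signal was between 19.4 and 23.3 on the 3 arrays, and the labels do not say that the samples came from separate cultures, so the p-values cover no more than the variation among these samples, possibly technical. All 12 measured astrocyte markers were above background, among them Gfap, Aqp4 and S100b. Of 19 measured markers of microglia and blood cells, 2 were, and the first 3 on that list, Aif1, Itgam and Cx3cr1, were not. Markers of other cell types were above background in part: 6 of 10 of neurons (such as Map2, at 10.91 ± 0.16), 5 of 9 of the oligodendrocyte lineage (such as Olig1, at 11.64 ± 0.09), 4 of 12 of fibroblasts and mesenchyme (such as Acta2, at 9.83 ± 0.21) and 1 of 10 of endothelium (Kdr, at 6.59 ± 0.46). Of all genes tested, 58.3% were above background. These examples lie farthest above the limit on their lists, except Olig1, which Cnp exceeded. Snap25, Mog, Col1a1 and Pecam1, on the same lists in that order, did not pass. The part of these other cell types in the signals of the pathway was not tested.

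The receptors and the rest of the pathway stood on opposite sides of the limit. Of the 9 Toll-like receptor genes, 1 was above background and 8 were not, whereas 18 of the 20 downstream members were above it. Over all genes tested the share was 58.3%, against 11.1% of the Toll-like receptors and 90% of the downstream members, and 66.7% (20 of 30) of all measured members. The median distance of the Toll-like receptors was below the limit on every array, at -1.41, -1.46 and -1.25 on replicates 1, 2 and 3. That of the downstream members was 2.41, 2.46 and 2.70 above it, while the median of all genes tested was 1.63, 1.75 and 1.88 above it. The order of the receptors, all genes and downstream members was thus the same on each array. Genes with more probe sets had more chances of a bright one, and the contrast was also present at equal numbers, though on few genes. Among genes with 1 probe set, 41.6% of all tested were above background, as were 1 of 6 Toll-like receptors and 5 of 6 downstream members. With 2 probe sets the share of all genes was 67.7%, with 0 of 1 receptors and 7 of 8 downstream members above background. With 3 or more it was 83.4%, with 0 of 2 and 6 of 6, so there the downstream members were closer to all genes. Counted by probe sets, 1 of 15 for the Toll-like receptors and 38 of 53 for the downstream members were above the limits, against 52.2% of all 34874 tested. The 1 of the receptors, that of Tlr2, passed only just there (adjusted p = 0.0498, limma). The contrast was smaller with probe sets summarised by their median. In that setting 13 of 20 downstream members and 1 of 9 Toll-like receptors were above background, against 50.5% of all genes tested. These counts are descriptions and the difference between the lists was not tested, since genes are not replicates. In RNA from a whole culture, few cells with a transcript and little of it in each cell cannot be told apart.

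**Figure D1:**
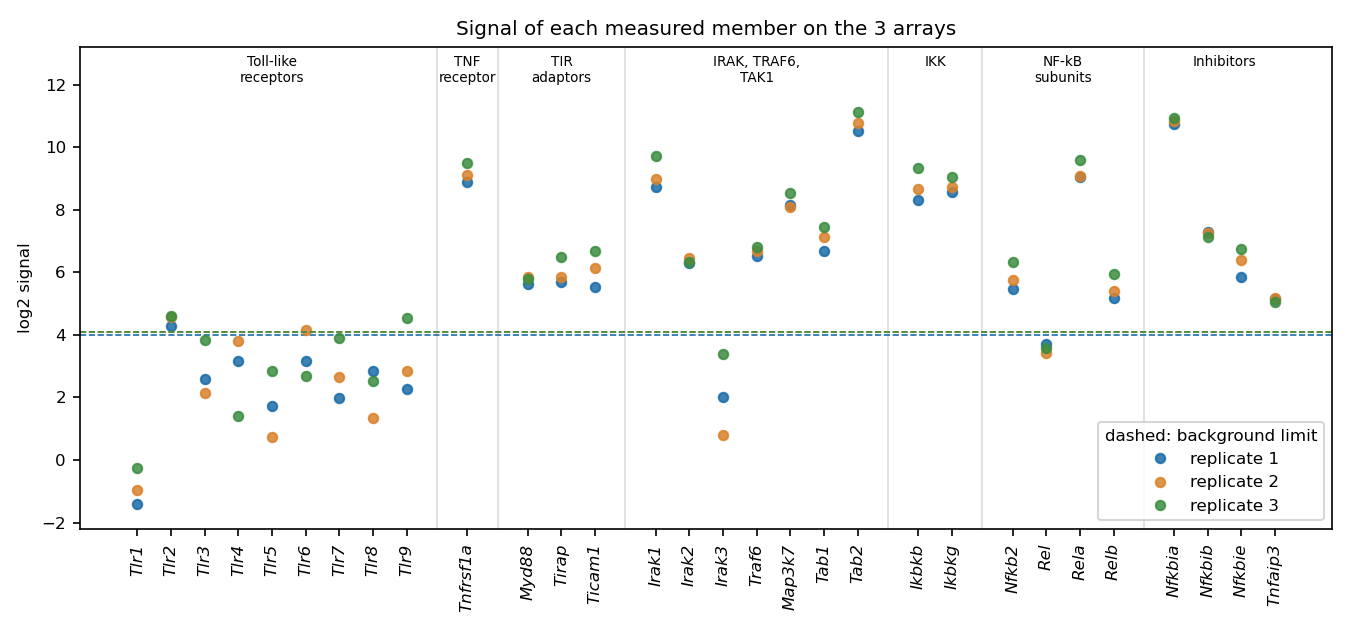
Log2 signal (vertical axis) of the 30 measured members, grouped by role along the horizontal axis, with 1 point per array and the background limit of each array as a dashed line. Tlr2 lies just above the limits on all 3 arrays, the other Toll-like receptors lie mostly below them, and of the downstream genes Irak3 and Rel lie below them on all 3 arrays.

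Tlr2, which pairs with Tlr1 or Tlr6 to bind bacterial lipoproteins, was the receptor above background. Its signal was 4.28, 4.57 and 4.62 on replicates 1, 2 and 3 (4.49 ± 0.18), 0.43 log2 units above the limit (adjusted p = 0.0306, limma). The signal exceeded the limit on each array, but by little, and the call did not hold with 2 arrays: the adjusted p was 0.0699 without replicate 1, 0.171 without replicate 2 and 0.0717 without replicate 3 (limma). Over 14 alternative settings it ranged from 0.00859 to 1, and 7 of them kept the call. Its partners did not pass the test. Tlr1 was at -1.39, -0.95 and -0.25 (-0.86 ± 0.58), below the limit on every array. Tlr6 was at 3.18, 4.14 and 2.69 (3.34 ± 0.74), above the limit on replicate 2 and below it on the other arrays. Tlr2 has 1 probe set, and microglia and blood markers, whose cells also express this receptor, were not wholly below background. Of 19 such genes 2 passed (10.5%, against 58.3% of all genes tested), Lyz2 at 6.23 ± 0.33 and Csf1r at 5.34 ± 0.18. Csf1r passed on 1 of its 3 probe sets. Of 20 measured genes of unrelated tissues, 3 passed (15%), a share no lower than that of these markers. The summed signal of the 19 genes, which includes the 17 that did not pass, was 272, 301.4 and 215.6 on replicates 1, 2 and 3. The part of such cells in the Tlr2 signal was not tested.

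The other receptors of the cell surface were not above background. Tlr4, the receptor for bacterial lipopolysaccharide, was at 3.16, 3.81 and 1.41 (2.79 ± 1.24). All 4 of its probe sets were below the limit, with mean distances from -4.34 to -1.26. Tlr5, which binds flagellin, was at 1.72, 0.75 and 2.83 (1.77 ± 1.04). On every array the signals of Tlr4 and Tlr5 were below the limit, and they varied by more than 2 log2 units between arrays.

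The receptors of endosomes were not above background either. Tlr3, the receptor for double-stranded RNA, was at 2.58, 2.12 and 3.83 (2.84 ± 0.88), and its second probe set was at 2.82, 3.47 and 0.53. The probe sets of Tlr3 put different arrays highest, replicate 3 by the first and replicate 2 by the second. Tlr7, a receptor for RNA, was at 1.97, 2.64 and 3.91 (2.84 ± 0.99), with 0 of 3 probe sets above the limit. Tlr8, a close relative of Tlr7, was at 2.85, 1.35 and 2.53 (2.24 ± 0.79). Tlr9, which senses DNA with unmethylated CpG, was at 2.28, 2.84 and 4.55 (3.23 ± 1.18). The Tlr9 signal was above the limit on replicate 3 and below it on the others. None of these genes passed, with or without any of the 3 replicates, and this is a bound on the signal and does not show that the transcripts are absent.

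Tnfrsf1a, which encodes the main receptor for tumour necrosis factor and reaches IKK without a TIR adaptor, contrasted with the Toll-like receptors. Its signal was 8.89, 9.10 and 9.49 on replicates 1, 2 and 3 (9.16 ± 0.30), 5.10 log2 units above the limit (adjusted p = 5.14e-05, limma). It rests on 1 probe set and passed under each of 14 alternative settings.

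All 3 measured TIR adaptor genes were above background (against 58.3% of all genes tested), although their receptors mostly were not. Myd88, the adaptor that most Toll-like receptors and the interleukin-1 receptor share, was at 5.63, 5.84 and 5.78 (5.75 ± 0.11; adjusted p = 0.000345, limma). Tirap, which brings MyD88 to Tlr2 and Tlr4, was at 5.68, 5.83 and 6.48 (5.999 ± 0.42; adjusted p = 0.00127), and passed on 1 of its 2 probe sets. Ticam1 encodes TRIF, the adaptor of Tlr3 and of internalised Tlr4, and was at 5.52, 6.14 and 6.68 (6.11 ± 0.58; adjusted p = 0.00217). The adaptors lay 1.70, 1.94 and 2.06 log2 units above the limit, on every array above it, and Ticam1 had the widest spread between arrays of all members that passed.

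Of the 3 measured genes of IRAK kinases, Irak1 and Irak2 passed and Irak3 did not (58.3% of all genes tested passed). Irak1 was at 8.72, 8.996 and 9.73 (9.15 ± 0.52; adjusted p = 0.000113, limma), with all 4 probe sets above the limit. Irak2, a kinase that sustains the response, was at 6.29, 6.46 and 6.32 (6.35 ± 0.09; adjusted p = 0.000146). Irak3 encodes IRAK-M, which restrains the pathway and is best known from macrophages. It was at 2.03, 0.79 and 3.38 (2.06 ± 1.30), below the limit on all arrays and on both of its probe sets.

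The ubiquitin ligase TRAF6 and the TAK1 complex were represented throughout. Traf6 was at 6.52, 6.68 and 6.80 (6.67 ± 0.14; adjusted p = 0.000119, limma), though 2 of its 5 probe sets passed, and with the median of its probe sets it did not (0.57 log2 units above the limit, adjusted p = 0.179). Map3k7, which encodes the kinase TAK1, was at 8.13, 8.08 and 8.54 (8.25 ± 0.25), with 4 of 6 probe sets above the limit. Tab1 and Tab2 encode the subunits that activate TAK1 and tie it to ubiquitin chains. Tab2 was at 10.52, 10.77 and 11.14 (10.81 ± 0.31), with both probe sets above the limit. Tab1 was at 6.67, 7.13 and 7.43 (7.08 ± 0.38) and its second probe set was at -0.44, 2.85 and -0.05, below the limit on each array. Its call therefore turned on the choice of probe set, and its distance was -0.098 with the median of its probe sets. The adjusted p of Map3k7, Tab1 and Tab2 was 6.69e-05, 0.000231 and 3.89e-05 (limma).

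Of the IKK complex, the kinase subunit gene Ikbkb and the regulatory subunit gene Ikbkg (NEMO) were measured. Ikbkg was at 8.58, 8.71 and 9.05 (8.78 ± 0.24; adjusted p = 4.92e-05, limma), and all 6 of its probe sets were above the limit, from 1.99 to 4.73 log2 units. Ikbkb was at 8.32, 8.65 and 9.32 (8.77 ± 0.51; adjusted p = 0.000131). Of its 5 probe sets 2 passed and 3 lay below the limit, at -0.85, -1.18 and -1.09, and its distance was -0.043 with the median of them. The probe sets of Ikbkb thus disagreed, and those of Ikbkg did not.

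**Figure D2:**
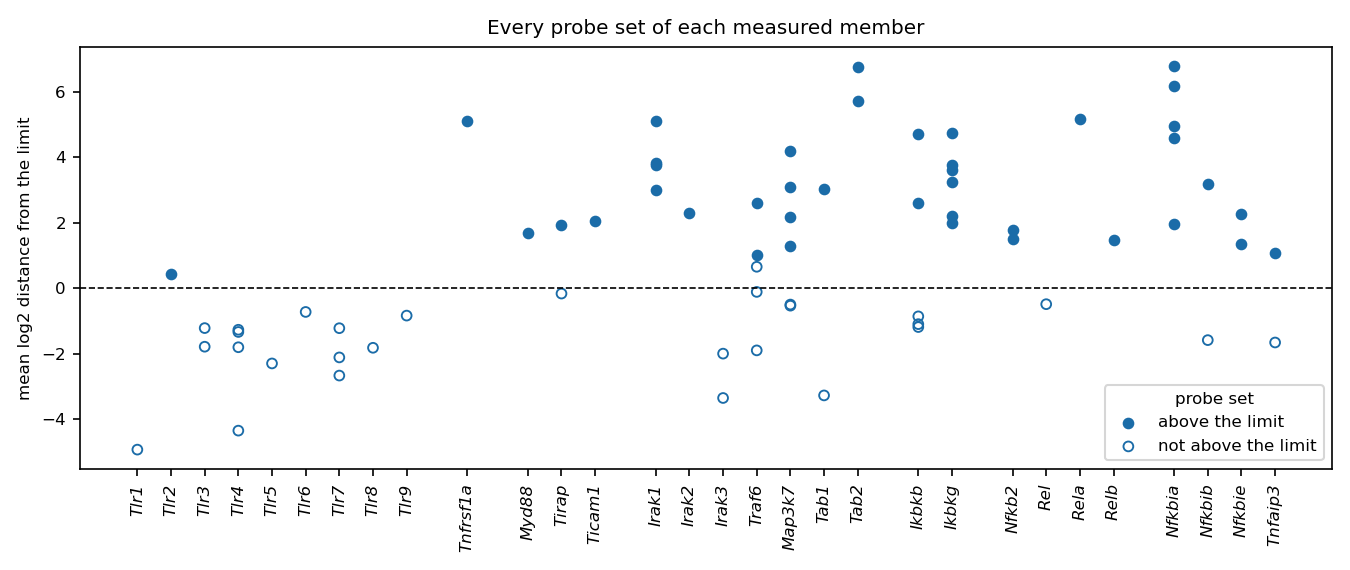
Mean log2 distance from the background limit (vertical axis) of each of the 69 probe sets of the 30 measured members, filled where above the limit by the test over all probe sets and open where not. All 15 probe sets of the Toll-like receptors but that of Tlr2 are open, and Ikbkg, Irak1 and Nfkbia are filled on every probe set.

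Of the 4 measured NF-kB subunit genes, 3 were above background (75%, against 58.3% of all genes tested). Rela, which encodes p65, the activating partner in the common dimer, was at 9.04, 9.09 and 9.59 (9.24 ± 0.31), 5.18 log2 units above the limit (adjusted p = 5.28e-05, limma). Nfkb2 and Relb encode the subunits of the alternative pathway. Nfkb2 was at 5.47, 5.75 and 6.34 (5.85 ± 0.45; adjusted p = 0.00178), on both probe sets, and Relb was at 5.19, 5.41 and 5.95 (5.52 ± 0.39; adjusted p = 0.00258). Rel, whose protein c-Rel is best known from lymphoid and myeloid cells, was at 3.71, 3.42 and 3.59 (3.57 ± 0.14). Rel was below the limit on all 3 arrays, with a spread between arrays narrower than that of the subunits that passed. Relb lay 1.46 log2 units above the limit and no longer passed with the limit taken from genes of other tissues (0.48 above it, adjusted p = 0.0615).

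All 4 genes of inhibitors were above background (against 58.3% of all genes tested). Nfkbia encodes IkB-alpha, the inhibitor that is destroyed and resynthesised fastest, and was at 10.75, 10.83 and 10.92 (10.84 ± 0.08), 6.78 log2 units above the limit (adjusted p = 3.84e-05, limma). Its 5 probe sets all passed, from 1.98 to 6.78 log2 units above the limit. Nfkbie, for IkB-epsilon, was at 5.84, 6.40 and 6.75 (6.33 ± 0.46; adjusted p = 0.000822), with both probe sets above the limit. Nfkbib, for IkB-beta, was at 7.30, 7.25 and 7.14 (7.23 ± 0.08; adjusted p = 7.85e-05), but its other probe set was at 4.09, 3.26 and 0.09. The probe set that passed is of a kind that can bind several transcripts, and the distance was -1.58 when such probe sets were left out. With the median of both probe sets it was 0.82 and did not pass (adjusted p = 0.174). Tnfaip3, a ubiquitin-editing enzyme that shuts the pathway down and is itself a target of NF-kB, was at 5.16, 5.17 and 5.05 (5.12 ± 0.07; adjusted p = 0.0017). It lay 1.07 log2 units above the limit, on 1 of 2 probe sets, and at -0.27 with the median of them. With the limit from genes of other tissues it was 0.086 above and did not pass (adjusted p = 0.507). Nfkbia, Nfkbib and Tnfaip3 had the narrowest SDs of the 20 members above background as deposited, from 0.068 to 0.084. After subtraction, on each array, of the median deviation of the genes called above background, the SD was 0.0895 for Nfkbia, 0.252 for Nfkbib and 0.229 for Tnfaip3, so the last 2 no longer were.

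Several members are textbook targets of NF-kB itself, and their promoter sequences show where the factor could bind. The 250 bases before each start in RefSeq (GRCm38.p6) were searched on both strands for the kB consensus of 10 bases. A promoter was listed for 27 of the 33 genes, and 9 of these had a match, against 8.23% of all 27025 genes with a promoter. Of 17 members above background with a promoter 7 had one, and of 8 measured members not above it 2 had one, Tlr3 and Rel. The windows below are those of Tlr2, of the inhibitors and subunits with matches, and of Rel, and capitals mark the matches. For Tnfaip3 the match nearest the start is shown, and another, 125 to 116 bases before the start, is not. Nfkb2 has further matches in other listed promoters, which are not shown. Each is written 5′ to 3′ on the strand of its gene.
Tlr2, chr3:83841753-83841799, minus strand: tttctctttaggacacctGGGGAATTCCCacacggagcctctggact
Nfkbia, chr12:55492649-55492694, minus strand: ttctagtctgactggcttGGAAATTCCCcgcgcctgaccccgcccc
Tnfaip3, chr10:19015411-19015440, minus strand: gtgactggaatttccatcGGAAATCCCCct
Nfkbie, chr17:45555576-45555621, plus strand: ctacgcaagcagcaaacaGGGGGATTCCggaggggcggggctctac
Nfkb2, chr19:46304680-46304736, plus strand: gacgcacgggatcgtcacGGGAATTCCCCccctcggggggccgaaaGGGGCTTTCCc
Rel, chr11:23771033-23771079, minus strand: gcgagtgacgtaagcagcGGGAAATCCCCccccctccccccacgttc
In Tlr2, Rel and the first site of Nfkb2 the sequence reads as a match on both strands, and overlapping matches are marked as 1 run. The match of Nfkbia begins 29 bases before the start and that of Tlr2 173 bases before it. Irak1, Map3k7 and Tlr3 also have a match and are not among the 6 genes shown. Of all 9 members with a match, 7 were above background, and Tlr3 and Rel were not. The share above background was 66.7% of all measured members and 58.3% of all genes tested. A match thus did not go with the call in every case. A match is a description of the letters and does not show that the factor was bound.

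**Figure D3:**
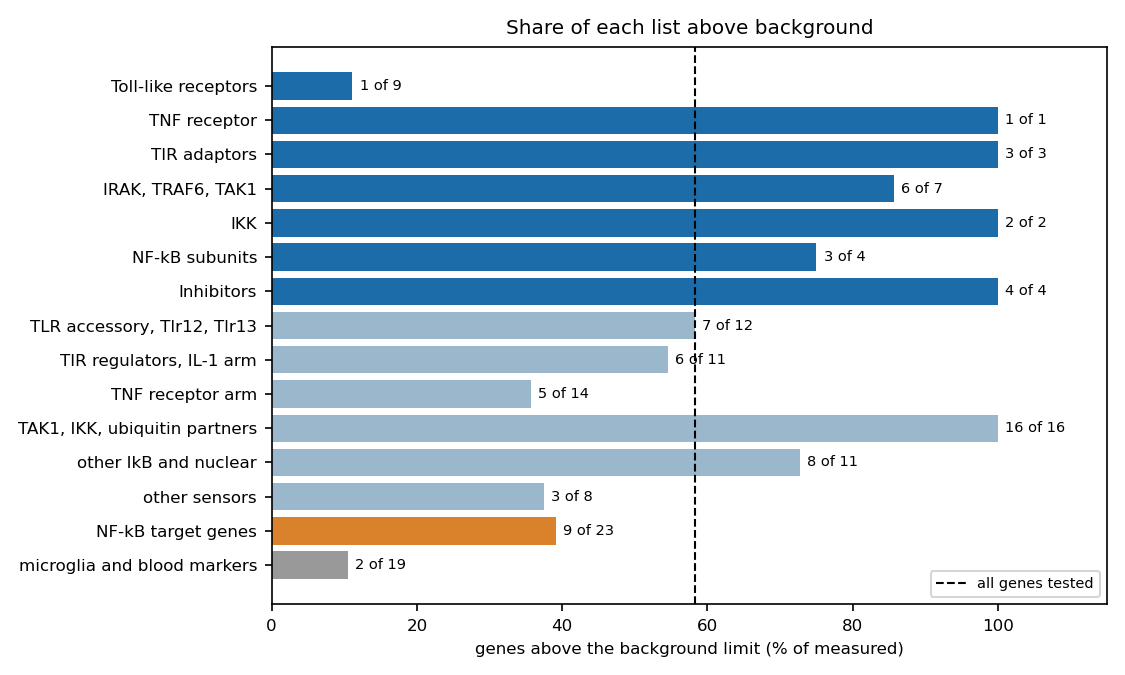
Share of the measured genes of the members' roles, related lists, NF-kB targets and microglia and blood markers that was above the background limit (horizontal axis, percent), with the count beside each bar and the share of all 18118 genes tested as a dashed line. Of the 15 lists drawn, Toll-like receptors (1 of 9) and microglia and blood markers (2 of 19) have the shortest bars, and the partners of TAK1 and IKK (16 of 16) are all above the limit.

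Genes around the receptors that load or fold them were in part above background. Of 10 measured genes of accessory and trafficking proteins 7 were (70%, against 58.3% of all genes tested). Tlr12 and Tlr13, further receptor genes on the same list, were not. With these 2 receptor genes counted, 7 of 12 were above background (58.3%), which is the share of all genes tested. Cd36, 1 of the 7, passed narrowly (adjusted p = 0.0383, limma), and 0 of its 3 probe sets passed in the test over all probe sets. Lbp, which carries lipopolysaccharide to its receptor, was at 11.34, 11.40 and 11.62 (11.45 ± 0.15; adjusted p = 3.84e-05, limma). The chaperone genes Hsp90b1 and Cnpy4 were at 10.83 ± 0.28 and 8.81 ± 0.20. Ly96, which encodes the MD-2 subunit that binds lipopolysaccharide, passed at 4.45, 5.06 and 5.65 (5.05 ± 0.60; adjusted p = 0.0221), while Cd14, the co-receptor of Tlr4, was at 4.22, 1.53 and 1.31. Of the genes that handle lipopolysaccharide, Lbp and Ly96 thus passed and Cd14 and Tlr4 did not. Unc93b1, which takes endosomal receptors to their compartment, passed at 5.18 ± 0.23 (adjusted p = 0.00282). Tlr12, at 4.38 ± 0.16, was above the limit on all 3 arrays, by 0.32 log2 units on average, but did not pass (adjusted p = 0.0788, limma). Cd180, at 3.99 ± 0.33, did not pass either. Cd36, Ly96, Cd14 and Unc93b1 were singled out after their values were seen.

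All measured genes of the machinery around TAK1 and IKK were above background (16 of 16, against 58.3% of all genes tested), though Ikbke only narrowly. Ikbke lay 0.57 log2 units above the limit (adjusted p = 0.0461, limma), and its 1 probe set did not pass in the test over all probe sets. This gene was singled out after its values were seen. Ube2v1 and Ube2n, which encode the paired enzymes that build the ubiquitin chains for TRAF6, were at 10.74 ± 0.28 and 10.16 ± 0.16 (adjusted p = 3.88e-05 and 3.84e-05, limma). Sharpin, a subunit of the ligase of linear ubiquitin chains, was at 8.58 ± 0.20. Of 11 other genes of IkB proteins and nuclear regulators 8 passed (72.7%). Among them, Commd1 was at 9.44 ± 0.17 and the coactivator gene Crebbp at 9.37 ± 0.17. Irf3, the factor downstream of TRIF, also passed, at 8.60 ± 0.38. Irf7, a factor downstream of the endosomal receptors, and Nfkbid did not, at 3.53 ± 0.73 and 2.72 ± 0.75.

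Of 23 measured genes known as targets of NF-kB, 9 were above background (39.1%, against 58.3% of all genes tested, with no test of the difference). Those above it included Sod2, a mitochondrial superoxide dismutase, at 9.98, 10.14 and 10.22 (10.12 ± 0.12), and Vcam1, an adhesion molecule, at 8.92, 9.01 and 8.97 (8.96 ± 0.04). The cell survival gene Bcl2l1 was at 9.20 ± 0.48, Gadd45b at 8.73 ± 0.15 and the lipocalin gene Lcn2 at 7.16 ± 0.15. All these lay well above the limit on each array. The chemokine genes Ccl2, Cxcl1, Cxcl10 and Ccl5 passed at 6.71 ± 0.22, 6.25 ± 0.37, 5.53 ± 0.57 and 5.09 ± 0.15. Cytokine genes of acute inflammation did not: Tnf was at 1.06, 1.85 and 1.53, Il6 at 1.96, -0.09 and -0.40, and Il1b at 3.18, 3.48 and 4.40. Among these, Il1b was above the limit on replicate 3 only. Nos2, Ptgs2, Icam1, Sele, Csf2 and Mmp9 also did not pass, and neither did Ccl20, Cxcl2, Plau, Tnfaip2 and Zc3h12a. The targets above background have other known inducers as well, and their dependence on NF-kB was not measured.

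**Figure D4:**
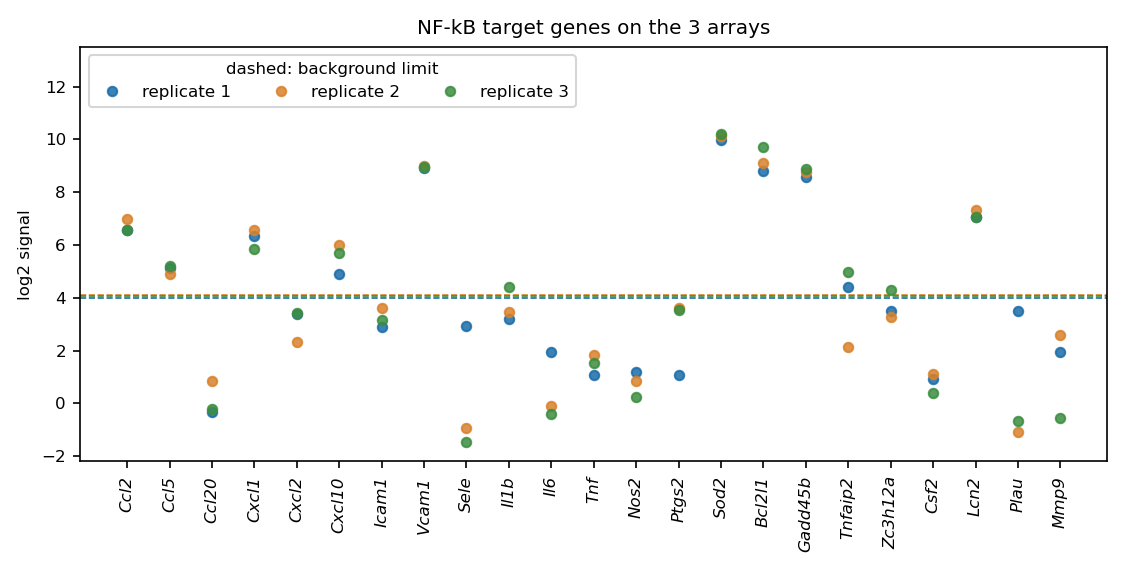
Log2 signal (vertical axis) of the 23 measured NF-kB target genes in list order, with 1 point per array and the background limit of each array as a dashed line. Sod2, Vcam1, Bcl2l1, Gadd45b, Lcn2 and the chemokine genes Ccl2, Cxcl1, Cxcl10 and Ccl5 lie above the limits on all 3 arrays, and Tnf, Il6, Nos2 and Csf2 below them on all 3.

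The 20 members above background differed somewhat between arrays. Of them 16 had their highest signal on replicate 3, and 17 their lowest on replicate 1. Of all 10567 genes above background, 64.3% were highest on replicate 3, although the median signal over all probe sets was lowest there. The median deviation from a gene's own mean was 0.33 on replicate 3 for the members and 0.16 for all genes above background. Less each array's median deviation, 13 of 20 members were highest on replicate 3, against 39.9% of all genes, and the members' median there was 0.17. The adaptor gene Ticam1 and the kinase genes Irak1 and Ikbkb had the widest ranges, at 1.17, 1.01 and 0.9999 log2 units as deposited and 0.82, 0.67 and 0.66 after that subtraction. Nfkbia, at a range of 0.17, and Tnfaip3, at 0.12, moved little as deposited. After the subtraction the range was 0.18 for Nfkbia and 0.46 for Tnfaip3. Probe sets of 1 gene did not always share the array on which they were highest. Among 9 members with several probe sets above the limit, 4 (Irak1, Tab2, Nfkb2 and Nfkbie) had the same highest array on all of them, and 5 did not. In Ikbkg, the brightest probe set was highest on replicate 3, while another was at 7.76, 7.66 and 6.48 and so lowest there. Over all probe sets above the limit, 65% of the 40 member probe sets and 54.6% of the 18211 in all were highest on replicate 3. The median SD was 0.306 for the members and 0.239 for all genes above background as deposited, and 0.195 and 0.182 after the subtraction.

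**Figure D5:**
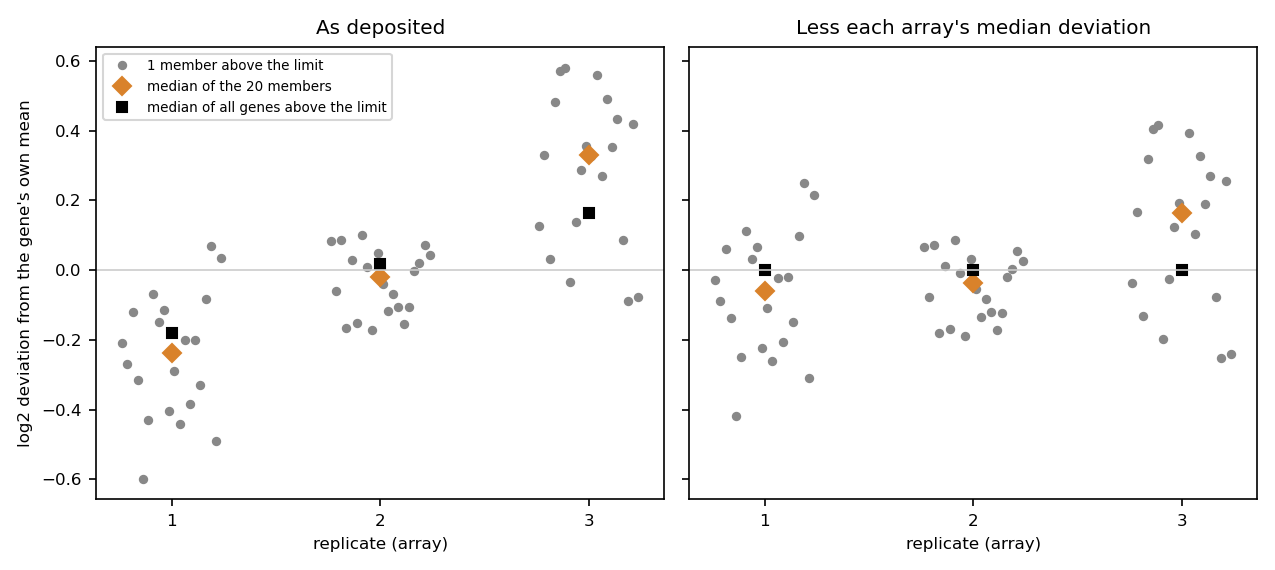
Log2 deviation from a gene's own mean (vertical axis) on each array (horizontal axis) for the 20 members above background, as deposited (left) and less each array's median deviation (right), with the median of the members as diamonds and that of all genes above background as squares. On replicate 3 the members' median is 0.33 as deposited and 0.17 after the subtraction.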

How the data were processed

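Total RNA of 3 samples in 1 group was measured on 1-colour arrays, 1 array per sample. The deposited table holds 1 linear intensity per probe set and array (45101 probe sets, from 0.0563 to 12521), made with GCOS 1.4 per the submitters' processing notes. Scaling and detection calls are not stated in the labels or file, and the number of arrays limits the precision. Gene names came from the platform annotation, which gives 1 gene for 34958 probe sets, more than 1 for 932 (not used) and no gene for 9211. No symbol changed against the RefSeq gene table of GRCm38.p6, and 204 probe sets had identifiers outside it. Log2 was taken with no pseudocount, and each gene took its probe set with the highest mean. Distances from the limits were tested with limma 3.58.1 in R 4.3.3 (lmFit, eBayes) over 18118 genes, and probe sets likewise over 34874. The procedure was tested on simulated data. The members, roles, related lists, tests and alternatives were chosen with earlier results of these data known. Every measured member is named, and of other lists up to 3 genes that passed farthest above the limit and up to 2 that did not pass with the lowest p. Target genes and the markers were open to naming. Other genes are said to be singled out after their values were seen. Alternatives were other limits, probe-set rules, scalings, pseudocounts, a filter on dim genes, a trended variance and leaving out each array.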

Additional observations from a re-analysis of the deposited data

How the results depend on the processing

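Of the 30 measured members, 13 passed and 10 did not pass under all 14 alternatives that gave them a value, and 7 changed. The count of members above background was 15 to 20, with 19 without any 1 of the replicates, and the downstream count was 13 to 18. It was 13 in 2 settings, both on the choice of probe sets. Summarising probe sets by their median gave 13 of 20 downstream members, against 50.5% of all genes tested. Leaving out probe sets that can bind several transcripts gave 13 of 16, against 54.9%. The 90% of the main setting thus rests in part on taking the brightest probe set. The count of Toll-like receptors fell from 1 to 0 (limma) with the limit at the 99th percentile, with the limit from other-tissue genes, with a pseudocount of 16, with a trended and robust variance, and without replicate 1, 2 or 3 (0 to 0). At an unadjusted p below 0.05 the counts were 0 for both other limits and without replicate 2, and 1 for the rest. With the limit from other-tissue genes Tlr2 was at -0.55, and with probe sets of a gene summarised by their median Tab1, Ikbkb and Tnfaip3 were at -0.098, -0.043 and -0.27, and Traf6 and Nfkbib, at 0.57 and 0.82, also did not pass. Relb and Tnfaip3 did not pass with the limit from other-tissue genes (0.48 and 0.086). With probe sets of suffix _x_at, _s_at or _a_at left out, which can bind several transcripts, Nfkbib was at -1.58. Ticam1, Rela, Nfkb2 and Nfkbie, which have only such probe sets, had no value in that setting. The count of microglia and blood markers was 1 in place of 2 with the limit from other-tissue genes, with the median of probe sets and with probe sets of those suffixes left out. The limit from other-tissue genes was 5.04 in place of 4.06, and under it fewer genes pass by construction. For the other settings the cause was not tested. No paired analysis was possible because there is 1 group. Signal close to background limits the calls: a gene less than about 1 log2 unit above the limit can go uncalled.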

Other observations

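Other receptors that feed NF-kB were in part above background. Of all measured genes on the related pathway lists 45 of 72 were (62.5%), against 58.3% of all genes tested. Of 11 measured regulators of TIR signalling and genes of the interleukin-1 arm 6 were above background (54.5%). They included Tollip, an inhibitor of IRAK1, at 9.58 ± 0.43. The ubiquitin ligase genes Peli2 and Peli1 also passed, at 9.07 ± 0.31 and 8.42 ± 0.18. Il1r1, the signalling receptor for interleukin-1, was at 0.78, 3.60 and 1.64 and did not pass on either probe set, while the decoy receptor gene Il1r2 passed at 7.41, 7.42 and 7.11 (adjusted p = 9.86e-05, limma) and the accessory chain gene Il1rap at 7.00 ± 0.11, on 2 of 5 probe sets. These receptor genes were singled out after their values were seen. Il18rap and Il1rn were at 2.36 ± 1.18 and 2.85 ± 0.79 and did not pass.

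Of 14 measured genes of the tumour necrosis factor receptor arm 5 were above background (35.7%, against 58.3% of all genes tested). Among them, Birc2, a ubiquitin ligase at the receptor, was at 7.79 ± 0.38. The adaptor genes Tradd and Fadd also passed, at 7.47 ± 0.17 and 6.62 ± 0.23. The second receptor gene Tnfrsf1b was at 4.25, 4.90 and 2.13 and did not pass, above the limit on replicates 1 and 2 and below it on replicate 3, and Traf5 was at 3.91 ± 0.38. Of 8 measured genes of other sensors and their adaptors 3 passed (37.5%), namely Mavs, Ddx58 and Nod1. Mavs, the mitochondrial adaptor of RNA sensing, was at 7.36 ± 0.24 and the RNA sensor gene Ddx58 at 6.79 ± 0.06. Nod1, a sensor of bacterial peptidoglycan, was at 5.40 ± 0.23. Nlrp3 and Dhx58 were at 3.89 ± 0.88 and 3.27 ± 0.61 and did not pass. For the RNA sensors, Ddx58 passed while Tlr3, Tlr7, Tlr8 and Ifih1 did not, and the differences between them were not tested. Ifih1, at 0.96, 0.57 and 4.15, was singled out after its values were seen.

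Among 20 measured genes of other tissues 3 were above background (15%, against 58.3% of all genes tested). Cela1 was at 5.72 ± 0.17, Alb at 4.96 ± 0.20 and Pomc at 4.81 ± 0.23. They lay 1.66, 0.91 and 0.76 log2 units above the limit, each farther than Tlr2 (0.43).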
